A study of Mus musculus with 6 samples.

Results

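Prostaglandin synthesis, transport and breakdown was followed through 10 genes of the luminal uterine epithelium, in order along the pathway: Lpar3, Pla2g4a, Ptgs1, Ptgs2, Ptges, Ptges3, Akr1b3, Ptgis, Slco2a1 and Hpgd. They were chosen by the gene symbol that the array files give to each probe, and all 10 were found, with 18 of the 45281 probes on the array. RNA was measured at 3.5 days post coitum on 6 arrays of 1 Illumina bead chip. The 3 CKO arrays (replicates D, E and F) carried epithelium of Alk3 flox/flox Pgr cre/+ females. In these mice, Cre is made from a knock-in allele at the progesterone receptor locus (Pgr) and removes a floxed part of Alk3 that spans exon 2. Alk3, also called Bmpr1a, is one of the receptors that bind bone morphogenetic proteins (BMPs). Cre made from Pgr acts in every cell type that has used that locus, stroma and muscle of the uterus among them, so the deletion is not limited to the epithelium. The 3 Control arrays (replicates A, B and C) are labelled only as Control, without a genotype. All the mice had a mixed C57BL/6J and 129S5/SvEvBrd background, and their ages are not stated. Nor do the labels say whether each array holds 1 mouse or a pool, so the p-values speak only of the spread among these 6 samples, which may be technical.

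Prostaglandins are short-lived lipid signals made from arachidonic acid. A phospholipase frees the acid from membranes, and a cyclooxygenase turns it into prostaglandin H. Terminal synthases turn that into prostaglandin E, prostaglandin F or prostacyclin. A transporter and a dehydrogenase then remove prostaglandins E and F. In the mouse uterus this pathway is best known for embryo spacing, attachment and the decidual response, and mice that lack Lpar3, Pla2g4a or Ptgs2 have late or failed implantation.

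The windows around the annotated starts of 4 of the genes are shown because they pair the measured cyclooxygenase with the one below background, and the first with the last step of the pathway. They come from RefSeq (GRCm38.p6), hold 250 bases before the start and 50 after it, run 5′ to 3′ along the gene, and carry motif matches in capitals. Windows were at hand for 8 of the 10 genes.
Lpar3 (chr3:146220711-146221010, + strand): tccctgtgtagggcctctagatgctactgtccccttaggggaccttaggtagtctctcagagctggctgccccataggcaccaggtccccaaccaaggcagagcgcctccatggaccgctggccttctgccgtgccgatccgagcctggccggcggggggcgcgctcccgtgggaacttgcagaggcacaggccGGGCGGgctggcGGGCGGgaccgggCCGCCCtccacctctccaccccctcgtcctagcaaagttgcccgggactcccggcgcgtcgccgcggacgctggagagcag
Ptgs1 (chr2:36230176-36230475, + strand): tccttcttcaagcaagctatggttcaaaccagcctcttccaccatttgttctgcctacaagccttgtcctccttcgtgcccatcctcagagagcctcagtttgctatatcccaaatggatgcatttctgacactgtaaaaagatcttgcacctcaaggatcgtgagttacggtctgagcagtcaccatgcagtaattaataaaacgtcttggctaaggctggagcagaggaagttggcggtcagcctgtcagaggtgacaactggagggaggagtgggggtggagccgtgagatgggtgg
Ptgs2 (chr1:150099781-150100080, + strand): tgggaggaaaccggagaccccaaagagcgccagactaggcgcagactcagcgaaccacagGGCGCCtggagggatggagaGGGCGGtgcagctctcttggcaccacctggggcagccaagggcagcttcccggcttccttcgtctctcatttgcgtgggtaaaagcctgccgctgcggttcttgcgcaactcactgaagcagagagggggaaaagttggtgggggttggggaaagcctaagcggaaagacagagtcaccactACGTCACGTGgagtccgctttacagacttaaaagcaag
Hpgd (chr8:56294302-56294601, + strand): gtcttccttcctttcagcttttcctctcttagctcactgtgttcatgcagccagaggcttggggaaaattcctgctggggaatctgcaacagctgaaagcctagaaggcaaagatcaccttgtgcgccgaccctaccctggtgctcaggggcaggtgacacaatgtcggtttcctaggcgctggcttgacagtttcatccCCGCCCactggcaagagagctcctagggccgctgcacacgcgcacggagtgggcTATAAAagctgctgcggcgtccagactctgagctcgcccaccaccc

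The motifs searched on both strands were the TATA box TATAAA, the CCAAT box CCAAT, the GC box GGGCGG, the cAMP response core ACGTCA, the E-box CACGTG, the GC-rich element GGCGCC bound by BMP SMADs and the AP-1 site TGANTCA. The full estrogen and progesterone response elements were searched as well. The Lpar3 window held 3 GC boxes, a motif found in 35.7% of the 32851 windows of the table. The Hpgd window held a GC box as well as TATAAA, which 13.6% of windows hold and which here begins downstream of the annotated start. In the Ptgs1 window no match to these motifs was found. The Ptgs2 window held GGCGCC, found in 11.9% of windows, as well as a GC box. It also held a cAMP response core overlapping an E-box, found in 7.51% and 7.15% of windows. The core and the E-box both begin downstream of the annotated start. A match is a description of the letters and not evidence of a bound site.

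Of the 18 probes, 10 probes of 7 genes were above background (detection p-value under 0.05) on at least 3 of the 6 arrays and were tested. Lpar3, Ptgs1, Ptges3, Akr1b3, Ptgis, Slco2a1 and Hpgd were thus measured, and Pla2g4a, Ptgs2 and Ptges were not. Of the tested probes, 9 were above background on all 6 arrays, and the other, Slco2a1 probe 2, on 1 CKO and 2 Control arrays. Signals are given as normalised log2 signal unless raw intensity is named, and probes of 1 gene are numbered from the brightest. Bead numbers ran from 26 to 56 per array for the tested probes, and the standard error between beads from 2.98% to 10.3% of the raw signal.

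**Figure D1:**
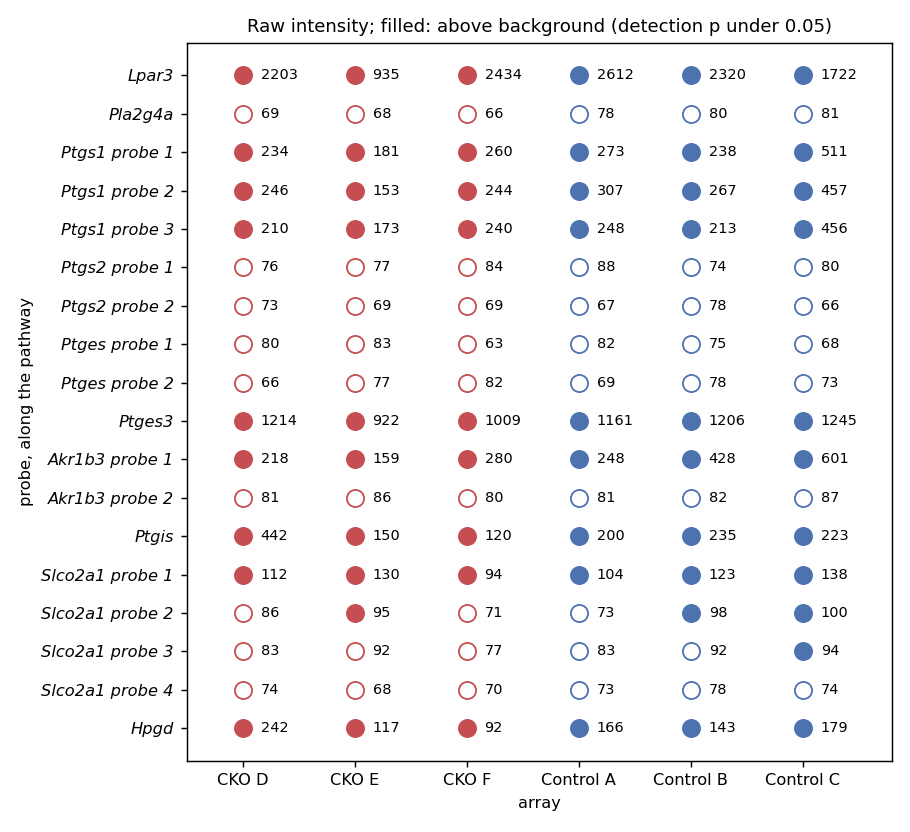
Raw intensity of the 18 probes (rows, along the pathway) on each array (columns, CKO then Control). Filled circles are above background and open ones are not; both Ptgs2 probes, both Ptges probes and the Pla2g4a probe are open on all 6 arrays.

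Not one of the 10 tested probes differed between CKO and Control by limma's adjusted p-value (0 of 10). Over all 17291 tested probes the share called was 0.0174%, in 3 probes, each higher in CKO. All 10 probes had a difference below 0, that is, lower in CKO, with a median of -0.29. Among all tested probes 52.5% lay below 0, with a median of -0.02. The 10 probes belong to 7 genes and were read on the same 6 arrays, so they are not 10 independent values. None of the 10 had groups that did not overlap, where 10.3% of all probes did, and none had an unadjusted p-value under 0.05, against 4.56% of all probes and 1.99% in the direction lower in CKO. The common sign did not hold without CKO replicate E, when 6 of 9 tested probes were below 0 (49.7% of all probes), without CKO replicate F, with 6 of 10 (53.69%), or without Control replicate C, with 8 of 9 (52.76%). With array weights 7 of 10 were below 0 (50.52%).

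CKO array E stood apart, as it had the lowest mean correlation with the others (0.932 over all tested probes, where the next lowest array, Control C, had 0.9504 and the highest, Control B, 0.968), so differences are also given without it. Raw array medians ran from 79.7 to 82.1 in CKO and from 82.4 to 87.6 in Control, and probes above background from 17156 to 17461 in CKO and from 16620 to 17536 in Control. CKO took chip positions D to F and Control A to C, and an effect of position cannot be told apart from that of genotype. The targeted gene had 2 probes. The brighter Bmpr1a probe gave 8.86, 8.25 and 8.67 on CKO arrays D to F, against 9.26, 9.35 and 8.97 on Control arrays A to C. Its difference was -0.60 (SE 0.22, adjusted p 0.985). The groups did not overlap, as in 4.94% of all tested probes in the direction lower in CKO. The other differed by -0.51 (SE 0.36, adjusted p 0.985) with groups that overlapped. Whether either lies in the deleted exon is not known here, and a probe outside it does not measure the deletion directly. Of 9 pan-epithelial markers 8 were measured, and Epcam was below background on all arrays. Of 5 luminal markers, Wnt7a, Muc1 and Sprr2f were above background on every array, while Calb1 and Krt13 were below it on all.

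Lpar3, the lysophosphatidic acid receptor through which this lipid drives uterine prostaglandin synthesis in the mouse, was similar on 5 arrays and low on 1. Its signal was 11.20, 9.79 and 11.30 on CKO arrays D, E and F, against 11.18, 11.03 and 10.74 on Control arrays A, B and C. CKO arrays D and F lay above every Control array and E below every one, so the groups overlapped. The means were 10.76 ± 0.84 in CKO and 10.98 ± 0.23 in Control (SD, n = 3 each), a difference of -0.22 (SE 0.42, 95% confidence interval -1.21 to 0.77, adjusted p 0.985). Without array E the difference was 0.27, and with array weights, which give D and E little weight, 0.14. A further probe of the same transcript, which the files name Edg7, an older name of the gene, gave 11.71, 10.09 and 11.58 in CKO, against 11.53, 11.73 and 11.14 in Control. This probe too was lowest on array E and differed by -0.34 (SE 0.45, adjusted p 0.985). In the authors' deposited intensities Lpar3 was 2340.9, 871.7 and 2498.5 on the CKO arrays, against 2308.6, 2073.2 and 1690.5 on the Control arrays, the same order of arrays.

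Pla2g4a, the cytosolic phospholipase A2 that frees arachidonic acid, was below background on all 6 arrays by its single probe. Its raw intensity was 68.9, 68.4 and 65.9 in CKO, against 77.5, 80.2 and 81.1 in Control. These values are not above background in either group and no difference is drawn from them, although the CKO values are the lower ones. After normalisation the signal was 4.41, 4.40 and 4.38 in CKO, against 4.51, 4.52 and 4.66 in Control. Raw array medians were lower in CKO as well, as given above, and whether this bears on the probe was not tested.

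The 2 cyclooxygenases differed in whether they could be measured at all. Ptgs1 encodes COX-1, the cyclooxygenase made steadily in many cells, and was above background on all arrays by each of its 3 probes. Ptgs1 probe 1 gave 7.63, 6.85 and 7.75 on CKO arrays D, E and F, against 7.58, 7.33 and 8.86 on Control arrays A, B and C. Control C was far above the other 5 arrays and CKO E was the lowest, while the remaining arrays mixed. Ptgs1 probe 2 gave 7.71, 6.44 and 7.64 in CKO, against 7.81, 7.54 and 8.68 in Control. Ptgs1 probe 3 gave 7.40, 6.74 and 7.60 in CKO, against 7.40, 7.11 and 8.67 in Control. All 3 probes thus put the same array highest and the same array lowest. The differences were -0.52 (SE 0.45), -0.74 (SE 0.44) and -0.48 (SE 0.44), each with an adjusted p of 0.985. For probe 1 the means were 7.41 ± 0.49 in CKO and 7.92 ± 0.82 in Control (SD, n = 3 each), a fold of 0.699 (95% confidence interval 0.334 to 1.46). Without Control C the difference of probe 1 was -0.05, and without CKO E it was -0.24. Without CKO E, probes 2 and 3 differed by -0.33 and -0.22, and without Control C by -0.41 and -0.0039. Array weights turned probes 1 and 3 to 0.0691 and 0.13, while probe 2 stayed at -0.21. Probe sequences are not given in the sources used here, so the probes may overlap and are not independent support of each other.

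Ptgs2 encodes COX-2, the inducible cyclooxygenase, which in the mouse uterus is known for its appearance around the attaching embryo. Neither of its probes was above background on any of the 6 arrays, with raw intensities of 68.9 to 84.5 in CKO and 65.9 to 87.9 in Control. The smallest detection p-value among these readings was 0.0897. The array gives only an upper bound on Ptgs2 in these samples, and no difference could be measured.

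**Figure D2:**
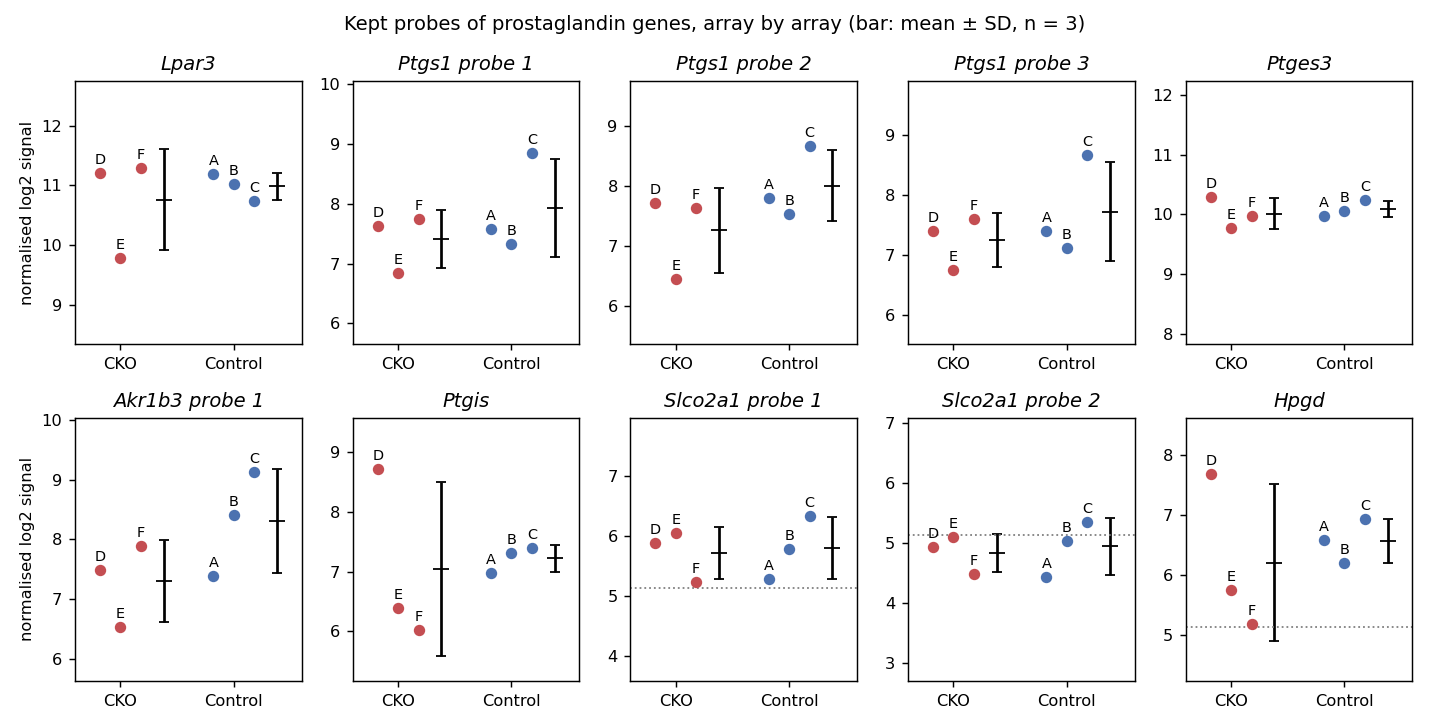
Normalised log2 signal of the 10 tested probes on each array (letters), CKO left and Control right in each panel, with mean ± SD (n = 3) beside the points. Each axis spans the same number of log2 units; the dotted line marks the highest of the arrays' lowest signals above background, 5.13. CKO E is the lowest point for Lpar3, Ptgs1, Ptges3 and Akr1b3, and CKO D the highest for Ptgis and Hpgd.

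Of the synthases for prostaglandin E among the 10 genes, Ptges3 was measured and Ptges was not. A further synthase, Ptges2, belongs to the other pathway genes described below. Its probe was above background on all 6 arrays and differed by -0.08 (SE 0.17). Ptges, the inducible membrane-bound enzyme that is paired with COX-2, was at background on each array by both probes, with raw intensities of 63.1 to 83.4 in CKO and 67.9 to 82.2 in Control. Ptges3, the cytosolic enzyme, is also p23, a co-chaperone of HSP90 in steroid receptor complexes. It was the steadiest of the measured genes, with 10.29, 9.77 and 9.98 in CKO, against 9.98, 10.05 and 10.24 in Control. The 6 arrays lay between 9.77 and 10.29, CKO holding both ends, so the groups overlapped. The means were 10.01 ± 0.26 in CKO and 10.09 ± 0.13 in Control (SD, n = 3 each), a difference of -0.08 (SE 0.20, 95% confidence interval -0.56 to 0.40, adjusted p 0.985). Without CKO E it was 0.04.

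Akr1b3, an aldose reductase that can also make prostaglandin F, had the largest difference of the measured genes and did not pass. Its brighter probe gave 7.48, 6.54 and 7.88 on CKO arrays D, E and F, against 7.39, 8.41 and 9.13 on Control arrays A, B and C. Control B and C lay above all CKO arrays, but Control A was lower than both CKO D and CKO F, which leaves an overlap. The means were 7.30 ± 0.69 in CKO and 8.31 ± 0.87 in Control (SD, n = 3 each). The difference was -1.01 (SE 0.52, 95% confidence interval -2.23 to 0.22, adjusted p 0.985), a fold of 0.498 (95% confidence interval 0.213 to 1.17). It stayed below 0 under all 18 alternatives, from -1.47 without Control A to -0.60 without Control C, and did not pass under any of them. Without CKO E it was -0.63. Its absolute size lay at percentile 97.9 of all tested probes. The within-group SD of this probe, pooled over both groups, was 0.79 and was also large, at percentile 92.3. The dimmer Akr1b3 probe was below background on all arrays, with raw intensities of 79.8 to 86.0 in CKO and 81.4 to 87.1 in Control, so the difference rests on 1 probe.

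Ptgis, prostacyclin synthase, varied more between CKO arrays than between the groups. It gave 8.72, 6.39 and 6.03 on CKO arrays D, E and F, against 6.97, 7.31 and 7.40 on Control arrays A, B and C. The CKO arrays lay on both sides of the Control arrays, which lay between 6.97 and 7.40. The means were 7.05 ± 1.46 in CKO and 7.23 ± 0.225 in Control (SD, n = 3 each), a difference of -0.18 (SE 0.67, 95% confidence interval -1.78 to 1.42, adjusted p 0.985). It ran from -1.02 without CKO D to 0.33 without CKO F, and was 0.15 without CKO E. The within-group SD of Ptgis, pooled over both groups, was 1.05, above that of 96.8% of tested probes.

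Removal of prostaglandins was represented by Slco2a1 and Hpgd. Slco2a1, the transporter that takes prostaglandins into cells, was near background. Its brightest probe gave 5.88, 6.05 and 5.23 in CKO, against 5.29, 5.79 and 6.33 in Control, and differed by -0.08 (SE 0.34, 95% confidence interval -0.88 to 0.72, adjusted p 0.986). The groups overlapped throughout, and the sign changed to 0.18 without Control C and to 0.16 without CKO F. It was -0.25 without CKO E. Slco2a1 probe 2 gave 4.94, 5.09 and 4.48 in CKO, against 4.43, 5.04 and 5.36 in Control, a difference of -0.11 (SE 0.29, adjusted p 0.985), and was not tested without CKO E, since too few arrays were then above background. The remaining 2 probes were above background on 1 array and on 0 arrays. Signal over background limits what can be said of this gene.

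Hpgd, the dehydrogenase that starts the breakdown of prostaglandins, had an array pattern like that of Ptgis. It gave 7.68, 5.75 and 5.17 on CKO arrays D, E and F, against 6.58, 6.20 and 6.94 on Control arrays A, B and C. CKO D was the highest of all arrays and CKO E and F were the lowest, so the Control arrays lay between the CKO arrays. The value on CKO F was near background, with a raw intensity of 92 and a detection p-value of 0.0331. The means were 6.20 ± 1.31 in CKO and 6.57 ± 0.37 in Control (SD, n = 3 each), a difference of -0.37 (SE 0.62, 95% confidence interval -1.85 to 1.11, adjusted p 0.985). It ran from -1.11 without CKO D to 0.15 without CKO F, and was -0.15 without CKO E.

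**Figure D3:**
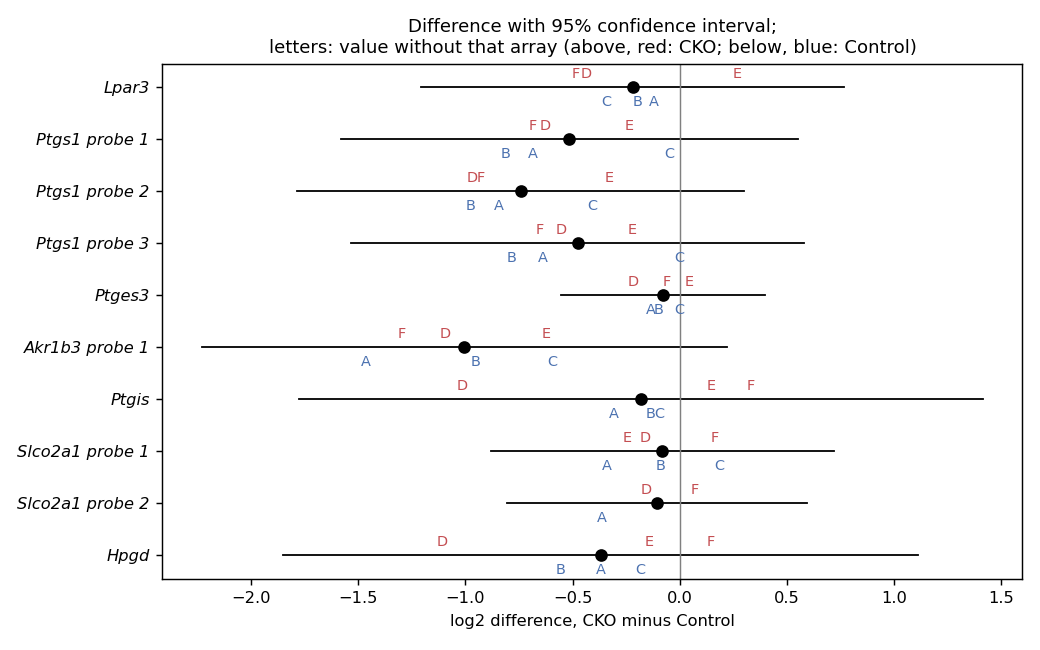
Log2 difference, CKO minus Control, of the 10 tested probes (points) with its 95% confidence interval (lines). Letters give the difference when that array is left out, CKO letters above and Control letters below each line; every interval spans 0, and for Lpar3, Ptges3, Ptgis, Slco2a1 and Hpgd leaving out 1 array moves the value across 0.

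Across arrays, CKO E had the lowest signal in 6 of the 10 tested probes (29.2% of all tested probes), those of Lpar3, Ptgs1, Ptges3 and Akr1b3. CKO F had the lowest in 3 (10.3% of all tested probes), those of Ptgis and Hpgd and Slco2a1 probe 1. Control C had the highest signal in 6 (18.7% of all tested probes), those of Ptgs1, Akr1b3 and Slco2a1. In 5 of the 10 probes the CKO arrays ranged more widely than the Control arrays, as 67.13% of all tested probes did.

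Markers of other cell types varied along with some of these values. Of 5 mesothelium markers 3 were measured (Msln, Upk3b and Upk1b), each above background on all arrays by at least 1 probe; Lrrn4 was above it on 1 CKO array, and no probe was found for Wt1. Their mean deviation from the mean of the 6 arrays was 1.61, -0.86 and -0.96 on CKO arrays D, E and F, against 0.03, -0.33 and 0.51 on Control arrays A, B and C. Hpgd deviated by 1.30, -0.63 and -1.22 on the CKO arrays, against 0.19, -0.19 and 0.55 on the Control arrays, and Ptgis by 1.58, -0.74 and -1.11, against -0.16, 0.17 and 0.26. The arrays fell in the same order for Hpgd as for the mesothelium markers, while for Ptgis Control A and B changed places. Several marker lists were compared with these genes, and the match in order was not tested. The summed signal of these markers ran from 237.3 to 1395.2 in CKO and from 393.8 to 696.9 in Control. Of 12 stroma markers 8 were measured, and Hoxa11, Hand2 and Postn were below background on all arrays. Their mean deviation was 1.03, 0.75 and -0.92 on the CKO arrays, against -0.42, -0.32 and -0.12 on the Control arrays, and their summed signal ran from 1022.6 to 6317.7 in CKO and from 2129.4 to 2828.3 in Control. Of 10 endothelium markers 8 were measured, Tie1 being below background throughout, with mean deviations of 0.29, 0.90 and -0.66 in CKO, against -0.11, -0.27 and -0.15 in Control. Their summed signal ran from 480.7 to 1637.7 in CKO and from 740.1 to 768 in Control. On CKO array E, where Lpar3, Ptgs1 and Akr1b3 were lowest, the epithelial lists did not move one way. The 8 pan-epithelial markers had their lowest mean deviation there. It was 0.15, -0.36 and -0.03 in CKO, against 0.16, 0.06 and 0.02 in Control. Their summed signal ran from 26995 to 33010.4 in CKO and from 28995.2 to 34300.8 in Control. By their brightest probes these markers disagreed on E. Krt19 fell most (8.77, against a mean of 10.73 over the 6 arrays), and Cdh1, Krt8, Krt7 and Elf3 also lay below their means. Krt18 (12.14), Cldn7 (10.07) and Cldn4 (12.96) lay above theirs. Of 8 glandular markers 6 were measured, with their highest mean deviation on E, at -0.58, 0.94 and -0.40 in CKO, against 0.26, 0.19 and -0.41 in Control. Their summed signal ran from 582.3 to 4472.7 in CKO and from 666.4 to 4849.1 in Control. The sum was highest on Control A, where Spink1 was 12.08 (11.41 on CKO E) and Prss29 was 8.27 (10.53 on CKO E). The glandular markers did not move together on E. Prss29 was 10.53 there, against a mean of 6.31 over the 6 arrays, and Ttr, Spink1 and Lif also lay above their means. Aldh1a1 (4.74 on E) and Cxcl15 (6.90 on E) lay below theirs. The Lif probe was above background on 3 CKO and 0 Control arrays, so it entered the list through the CKO arrays. Its signal was higher on CKO F (5.59) than on E (5.33), so it marks nothing particular to E. The luminal markers were also highest on E by their mean. The mean deviation of the 3 measured ones was 0.02, 0.67 and 0.21 in CKO, against -0.58, 0.53 and -0.85 in Control, and their summed signal ran from 5662 to 9418 in CKO and from 3300.4 to 9047.8 in Control. Control B was close behind CKO E, and Sprr2f was higher on Control B (12.33) than on CKO E (12.11). With the stroma marker mean as a covariate, Ptgis differed by -0.74 (SE 0.59) and Hpgd by -0.93 (SE 0.51), each with an adjusted p of 1. In the same fit Lpar3 differed by -0.0061 (SE 0.45), Ptgs1 probe 1 by -0.44 (SE 0.54) and Akr1b3 by -0.84 (SE 0.60). These differences were smaller in size than without the covariate, as were those of Ptgs1 probes 2 and 3. Those of Ptges3 and both Slco2a1 probes were larger in size, like those of Ptgis and Hpgd. The part of the other cell types in the values of Lpar3, Ptgs1, Akr1b3, Ptgis and Hpgd was not tested, and in such bulk samples fewer cells of a type and less RNA per cell cannot be told apart.

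**Figure D4:**
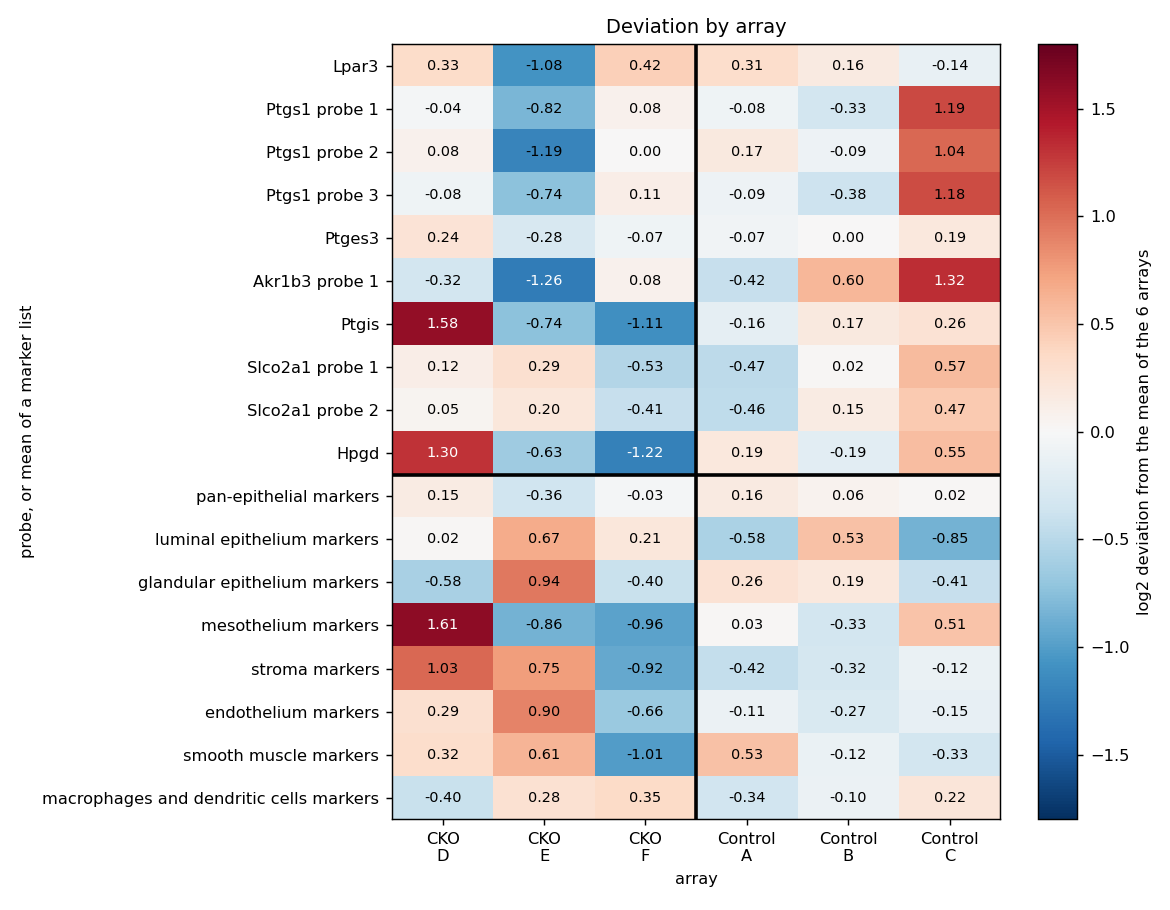
Log2 deviation from the mean of the 6 arrays (colour and number) for the 10 tested probes (upper rows) and the mean of 8 marker lists (lower rows), with CKO arrays left and Control arrays right. CKO E is low for Lpar3, Ptgs1 and Akr1b3, Control C is high for Ptgs1 and Akr1b3, and CKO D is high for Ptgis, Hpgd and the mesothelium markers.

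The wider pathway was read from 52 other genes, of which 27 had a tested probe. Of these, 0 passed the adjusted p-value; 11 genes were higher and 16 lower in CKO by their brightest probe, with a median difference of -0.05. By that probe, groups did not overlap in 2 of the 27 genes, both higher in CKO, where 5.4% of all tested probes lay apart in that direction. These were Akr1c18 and Ptgfrn, both near background in Control. Among terminal synthases and ketoreductases (3 genes with a positive and 5 with a negative difference), Akr1c18 gave 5.40, 7.20 and 5.65 in CKO, against 4.91, 5.03 and 4.73 in Control. Its enzyme, known best for inactivating progesterone, can also reduce prostaglandins. It was above background on all 3 CKO arrays and on 1 Control array, so it entered the test through the CKO arrays. The Control values lie at or near background and leave the size of the difference uncertain. The fitted value was 1.19 (SE 0.46, adjusted p 0.985), with array E the highest, and nothing is read from it. Prxl2b, a prostaglandin F synthase, differed by -0.31, Ptgds, a prostaglandin D synthase, by -0.48, and Cbr1, a carbonyl reductase, by -0.16 (SE 0.20, 0.42 and 0.18). The Ptgds probe was above background on 2 CKO and 2 Control arrays.

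Among prostaglandin receptors and related genes, 3 of 11 were measured, each with a difference above 0. Ptgfrn, a membrane protein that binds the prostaglandin F receptor, gave 5.77, 6.46 and 5.78 in CKO, against 5.58, 5.39 and 4.78 in Control, a difference of 0.75 (SE 0.30, adjusted p 0.985). Ptger2, the prostaglandin E receptor EP2, differed by 0.14 (SE 0.42) and Ppard, a nuclear receptor that prostacyclin can activate, by 0.01 (SE 0.18). The probes of Ptger4, Ptgfr, Ptgir, Ptgdr and Ptgdr2 were below background on all arrays. Those of Ptger3 and Tbxa2r were above it on 1 CKO array each, and no probe was found for Ptger1. Among the other lysophosphatidic acid receptors (2 with a positive difference, 1 with a negative one), Lpar6 differed by 0.11 (SE 0.17), and the probe pairs of Lpar1 and Lpar2 disagreed in sign, at -0.87 and 0.05 for Lpar1 and 0.49 and -0.20 for Lpar2.

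Genes of arachidonic acid release had 3 positive and 6 negative differences. Pla2g10, a secreted phospholipase A2, gave 13.17, 10.42 and 12.93 on CKO arrays D, E and F, against 12.38, 12.99 and 13.45 on Control arrays A, B and C, a difference of -0.76 (SE 0.73, adjusted p 0.985). Array E again lay below all others, as for Lpar3 and Ptgs1. Faah, which breaks down fatty acid amides such as anandamide, differed by -0.41 (SE 0.23). Pla2g4b, another cytosolic phospholipase A2, differed by -0.34 (SE 0.21) with a probe above background on 1 CKO and 3 Control arrays. Its brightest probe differed by -0.29 (SE 0.22). Mgll, a monoglyceride lipase, differed by 0.24 (SE 0.18), while the brightest Mgll probe differed by -0.22. Export and breakdown genes had 4 negative differences of 4. Slco3a1, an organic anion transporter, differed by -0.57 (SE 0.31) with a probe above background on 1 CKO and 2 Control arrays. Its brightest probe differed by -0.98 (SE 0.62). Abcc4, an exporter of prostaglandins, differed by -0.22 (SE 0.43), and the prostaglandin reductases Ptgr1 and Ptgr2 by -0.20 and -0.05 (SE 0.27 and 0.24). The Ptgr1 probe was above background on 2 CKO and 2 Control arrays.

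**Figure D5:**
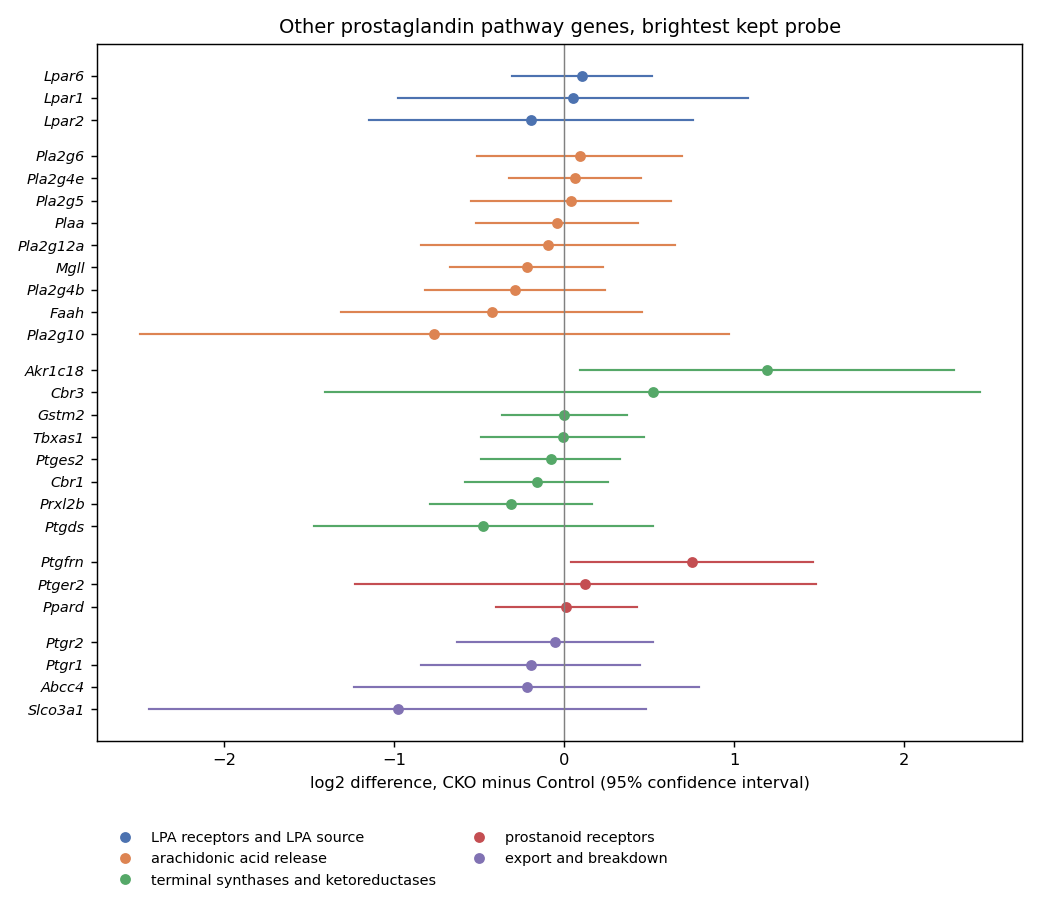
Log2 difference, CKO minus Control, with its 95% confidence interval for the 27 other pathway genes with a tested probe, each by its brightest probe and coloured by list. The unadjusted intervals of Akr1c18 and Ptgfrn lie above 0 and those of the other genes drawn span 0, where 4.56% of all tested probes had an unadjusted p-value under 0.05; Akr1c18 entered the test through its 3 CKO arrays, with Control near background.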

How the data were processed

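The scanner tables that the authors deposited hold, per the file headers, 4 values for each probe. These are the bead-averaged intensity (linear, and from its values not corrected for background or scaled between arrays), a detection p-value, a bead number and a standard error. Per the file headers, the deposited count is the number of beads averaged for the probe, and the error is that of the bead signal. A second set of deposited intensity values had been background-subtracted and quantile-normalised, judging by their negative values and common median of 6.4. No source used here names the software. Every per-sample column was accounted for.

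Normalised log2 signal was computed from the deposited raw intensity with neqc of limma 3.58.1 in R 4.3.3. This step applies normexp (negative controls estimated through the detection p-value, offset 16) and then quantile normalisation. The offset shrinks differences of dim probes. Probes above background (detection p-value under 0.05) on at least 3 of the 6 arrays were tested, 17291 in all. Differences, CKO minus Control, come from lmFit and eBayes of limma (two-sided). P-values were adjusted over all tested probes by the Benjamini-Hochberg method, with a threshold of 0.05. The procedure was tested on simulated data. These were drawn independently for each probe and array, without an outlying array such as CKO E, so no result here rests on them. Other pathway genes were matched by symbol, RefSeq accession or synonym. All member probes and Bmpr1a were named, and, of each other list without a call, up to 4 genes with the smallest p, each by its probe with the smallest p. One luminal marker is not reported here and was left out of its list. The members and lists were chosen with earlier results of these data known. Alternatives were other background corrections, normalisations, filters, probe summaries, variance models, array weights, a stroma covariate and leaving out each array.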

Additional observations from a re-analysis of the deposited data

How the results depend on the processing

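No member probe passed under any of the 18 alternatives, and of 168 recomputed differences 157 kept their sign. No other pathway probe passed either. Array weights turned Lpar3 to 0.14 and Ptgs1 probes 1 and 3 to 0.0691 and 0.13, giving 3 probes and 2 genes higher in CKO; the weights were 0.36 and 0.35 for CKO D and E and 3.18 for F, and 0.81, 3.89 and 0.79 for Control A, B and C. With single arrays left out, Lpar3 ran from -0.48 to 0.27, Ptges3 from -0.22 to 0.0431, Ptgis from -1.02 to 0.33, Slco2a1 probe 1 from -0.34 to 0.18, Slco2a1 probe 2 from -0.36 to 0.072 and Hpgd from -1.11 to 0.15. Member probes below 0 then numbered 6 to 10 and those above 0 0 to 4, and member genes 4 to 7 and 0 to 3. Slco2a1 probe 2 was not tested without Control B or C or CKO E. Probes called higher over the whole array, 3 with all arrays, were 0 to 2 with single arrays left out, 0 with the strict filter (detection p-value under 0.01 on all 6 arrays), 6 with array weights and 1 with the stroma covariate; the strict filter tests fewer probes, and otherwise the cause was not tested. Probes called lower were 0 throughout, where 344 had an unadjusted p-value under 0.05. Hpgd differed by -0.13 with no background correction, -0.93 with the stroma covariate and -0.91 with array weights, and Ptgis by -0.74 with the covariate and -0.96 with array weights. Signal over background limits Slco2a1 and Hpgd. No paired analysis was possible because the groups share no replicate labels.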

Other observations

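A few probes of the wider pathway were too rarely above background to be tested but were bright on 1 array; they were chosen after their values were seen. Hpgds, a prostaglandin D synthase, gave 7.79 on CKO array E by 1 probe, against 4.38 to 5.41 on the other 5 arrays, and 7.31 by another, which was below background on the other 5. Slco4a1, an organic anion transporter, gave 6.86 on CKO array E by 1 of its probes and was below background on the others. Enpp2, which encodes autotaxin, the enzyme that makes lysophosphatidic acid outside cells, gave 7.50 on Control array C and 5.56 on Control B by 1 probe, and was below background on the other 4 arrays. These are values of single samples.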
